A study of Mus musculus with 2 samples.

Results

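The Gpihbp1 Car4 endothelial cells of the mouse dura mater, the outermost membrane around the brain, were 124 of 7559 retained cell barcodes (99 of 4951 in sham and 25 of 2608 in JVL-14). They were chosen by measured counts of unique molecular identifiers (UMIs), each of which stands for 1 captured transcript. A barcode was a member if it held at least 200 genes and at most 10% mitochondrial UMIs, at least 5 UMIs summed over the endothelial genes Cdh5, Egfl7, Flt1, Kdr, Emcn and Ptprb, and at least 2 UMIs of Gpihbp1 plus Car4. Barcodes with 10 or more UMIs of Col1a1, Col1a2, Col3a1 and Dcn, or with 5 or more of C1qa, C1qb and C1qc, were left out. The levels of these rule genes are therefore a description of the choice. Endothelial barcodes that met every other limit but held under 2 UMIs of Gpihbp1 plus Car4 numbered 62 in sham and 27 in JVL-14, and are called the other endothelial cells.

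Both libraries came from female mice. The sham library followed sham surgery, with the time since surgery not stated, and the JVL-14 library was taken 14 days after ligature of the jugular veins. After perfusion the dura was stripped off the skullcap and digested with collagenase D and DNase, material of 2 meninges went into each well, and viable singlets were sorted for droplet sequencing. Each group has 1 library, and how many mice stand behind it is not stated, so no difference below has a replicate check, no test was made, and mouse, dissection and library cannot be told apart from the ligature.

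Capillary endothelium lines the smallest vessels and differs between organs. In heart, skeletal muscle and fat, continuous capillaries take up fatty acids: GPIHBP1 carries lipoprotein lipase (Lpl) to the luminal surface, the lipase frees fatty acids from triglyceride-rich particles, CD36 helps to take them up, and FABP4 and FABP5 bind them inside the cell. The transcription factors MEOX2 and TCF15 are known to drive this programme. Car4, a surface carbonic anhydrase, marks capillaries of several organs. PLVAP, by contrast, forms the diaphragms of fenestrae and caveolae, is typical of permeable vessels such as those of the dura, and is absent from mature vessels of the blood-brain barrier, which carry claudin-5 and many solute transporters.

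The members turned out to hold kinds of cells that differed in these genes, and 4 promoters are shown because they belong to genes on either side of that divide: Car4, Timp4 and Cd36, higher in members without Plvap, and Ramp3, higher in members with it. RefSeq entries were held for 9 of the 18 genes looked for (Gpihbp1, Car4 and the 16 genes named for that comparison). Each line gives the 250 bases before the start, 5′ to 3′, on GRCm38.p6, which is not the build of the counts. Capitals mark GGAAG, the core letters of sites for ETS factors, on either strand.
Car4, chr11:84957504-84957753, plus strand: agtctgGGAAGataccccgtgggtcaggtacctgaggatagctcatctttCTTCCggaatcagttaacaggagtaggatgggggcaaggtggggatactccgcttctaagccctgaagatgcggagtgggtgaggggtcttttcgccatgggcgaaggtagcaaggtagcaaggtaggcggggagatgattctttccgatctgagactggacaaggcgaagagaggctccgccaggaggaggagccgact
Timp4, chr6:115252206-115252455, minus strand: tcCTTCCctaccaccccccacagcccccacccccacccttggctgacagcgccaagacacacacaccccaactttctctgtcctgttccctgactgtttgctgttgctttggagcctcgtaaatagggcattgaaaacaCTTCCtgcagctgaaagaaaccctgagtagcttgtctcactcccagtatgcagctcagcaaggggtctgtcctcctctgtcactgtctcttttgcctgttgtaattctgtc
Cd36, chr5:17835897-17836146, minus strand: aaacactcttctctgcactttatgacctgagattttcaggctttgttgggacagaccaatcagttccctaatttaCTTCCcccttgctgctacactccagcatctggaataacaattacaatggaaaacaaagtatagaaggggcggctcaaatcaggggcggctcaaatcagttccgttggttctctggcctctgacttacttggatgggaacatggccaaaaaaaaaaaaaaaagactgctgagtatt
Ramp3, chr11:6658283-6658532, plus strand: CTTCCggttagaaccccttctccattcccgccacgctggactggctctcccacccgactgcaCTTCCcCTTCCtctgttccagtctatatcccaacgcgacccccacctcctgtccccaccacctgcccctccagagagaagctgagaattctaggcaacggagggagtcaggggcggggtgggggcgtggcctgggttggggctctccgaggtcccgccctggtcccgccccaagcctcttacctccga
GGAAG occurred 2 times before Car4, 2 times before Timp4, 1 time before Cd36 and 3 times before Ramp3, and 64.1% of all 32851 promoters hold it in a window of this length, so its presence sets none of these genes apart. TGACCT, the half-site of many nuclear receptors, was found once before Cd36 and not before the other 3, against 14.0% of all promoters, and CANNTG, the E-box bound by factors such as TCF15, once before each but Car4, against 66.2%. These are letter matches on both strands, not sites.

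Of the 5 marker genes of the label, Gpihbp1, Car4 and Cdh5 are in the rule, so their presence is no check of it, and Fabp4 and Ly6c1 are not. In sham, Gpihbp1 stood at 1916 CPM (UMIs per 1e+06 UMIs, summed over cells) with a UMI in 94.9% of members, and Ly6c1, a surface protein of capillary endothelium, at 4069 CPM in 98.0%. Outside the endothelial cells 0.605% and 1.96% of sham barcodes held a UMI of these genes, at a higher median depth (4882 UMIs per barcode against 1878 in members). In JVL-14, Gpihbp1 stood at 1354 CPM and was seen in 92.0% of members, and Ly6c1 at 1943 CPM in 88.0%. Fabp4 was in 67.7% of sham members at 8769 CPM but in 44.0% of JVL-14 members at 3238 CPM. Car4 itself was in 54 of 99 sham members (54.5%, 95% interval 44.2% to 64.6%) and in 5 of 25 in JVL-14 (20.0%, 6.83% to 40.7%). Most JVL-14 members thus had no Car4 UMI, and most had no Fabp4 UMI. Gpihbp1 and Car4 were seen together in 49.5% of sham and 12% of JVL-14 members. All intervals are exact 95% intervals and cover counting error only.

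Total UMIs per member ran from 570 to 21154 in sham and from 658 to 12019 in JVL-14, with medians of 1878 and 2868. Thinned to 1000 UMIs per cell, which left out 8 sham members and 1 in JVL-14, Fabp4 was detected in 63.7% and 37.5%, Cd36 in 51.6% and 12.5%, and Plvap in 38.5% and 75.0%. Unthinned, the same cells gave 64.8% and 41.7% for Fabp4, 63.7% and 16.7% for Cd36, and 41.8% and 79.2% for Plvap. The order of the libraries was the same at equal depth.

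At the edge of the rule, 16 sham endothelial barcodes held exactly 1 UMI of Gpihbp1 plus Car4 and stayed out, and 16 held exactly 2 and came in (4 and 6 in JVL-14). In sham the cells just outside had Fabp4 at 2161 CPM and Cd36 at 203 CPM, those just inside 4228 and 633 CPM, and members with 5 or more UMIs 11047 and 1437 CPM. In JVL-14 the same bands held Fabp4 at 2376, 2314 and 2634 CPM and Cd36 at 0, 220 and 61.3 CPM, on 4, 6 and 12 cells. In sham both genes thus went up along the count used by the rule, and in JVL-14 the few cells of these bands showed no such order. Endothelial barcodes with 0 UMIs of Gpihbp1 plus Car4 had Fabp4 at 865 CPM and Cd36 at 47.3 CPM in sham (46 cells). In JVL-14 they had 60.7 and 0 CPM (23 cells), so Fabp4 was lower there than in each of the bands above.

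Members fell into cells with Plvap and cells with lipid uptake genes, and few held both. In sham, 61 of 99 members had no Plvap UMI, and 55 of these 61 (90.2%, 79.8% to 96.3%) held at least 2 UMIs of Cd36, Lpl and Timp4 together. Timp4 encodes an inhibitor of matrix metalloproteases. Of the 38 sham members with Plvap, 6 (15.8%, 6.02% to 31.3%) did so. In JVL-14 the count was 3 of 5 members without Plvap and 1 of 20 with it. The cells with Plvap were the deeper ones (medians of 3084 UMIs against 1678 in sham), so the kind that lacked Cd36, Lpl and Timp4 was not the shallower one. Thinned to 1000 UMIs, 1 of 35 sham members with Plvap and 45 of 56 without it held 2 or more.

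**Figure D1:**
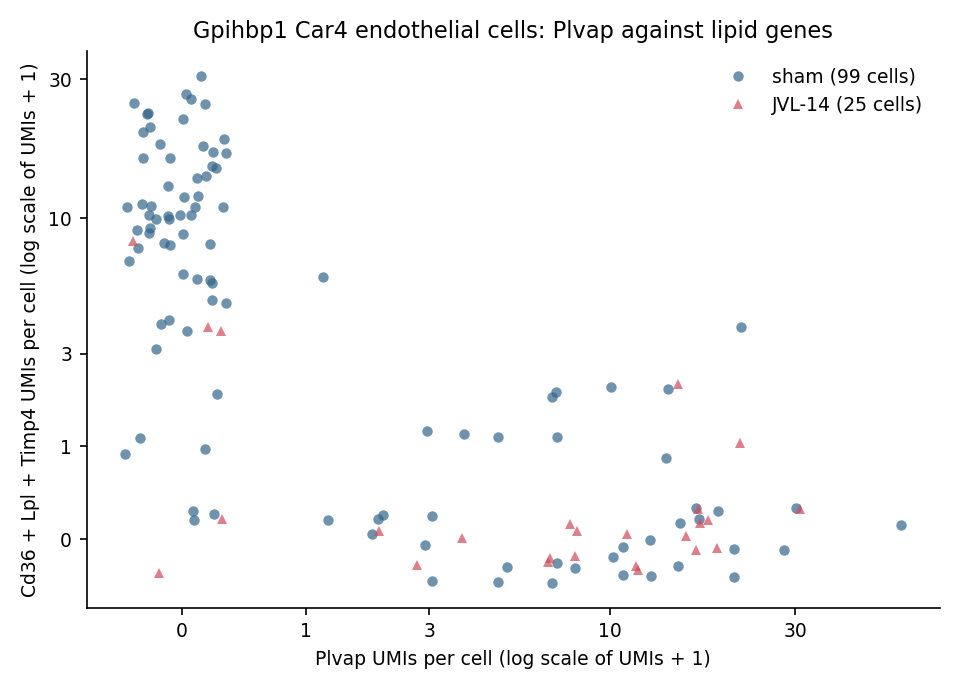
Each point is 1 Gpihbp1 Car4 endothelial cell, with its Plvap UMIs across and its summed Cd36, Lpl and Timp4 UMIs up, both on a log scale of UMIs plus 1 with a small sideways shift to separate points. Sham cells (circles) fill both arms, with 61 of 99 at 0 Plvap UMIs, and 20 of 25 JVL-14 cells (triangles) lie on the Plvap arm.

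Sham members without Plvap held more transcripts of Fabp4, Cd36, Lpl and Timp4 than those with Plvap. Fabp4 stood at 14722 CPM without Plvap and 1431 CPM with it, 10.3-fold apart (8.86 to 12), and per cell the median was 37 UMIs (0 to 90) against 0 (0 to 99), with 29 of the 38 Plvap cells at 0. The groups overlap in Fabp4 because a few cells with Plvap hold many UMIs of it. Cd36 stood at 1857 and 99.5 CPM (18.7-fold, 10.7 to 35.5), with a median of 5 UMIs per cell and at most 15 without Plvap, and at most 2 with it. Lpl stood at 1260 and 61.2 CPM (20.6-fold, 10.3 to 48.3). Much of the lipase that GPIHBP1 binds is known to come from neighbouring muscle and fat cells. Timp4 was in 45 of 61 cells without Plvap (1248 CPM) and in 1 of 38 with it (15.3 CPM, 2 UMIs), a ratio of 81.5 with an interval of 22.3 to 678. Fabp5 was 10.5-fold higher (5.51 to 22.3) and Tcf15 2.90-fold (2.11 to 4.06). The water channel Aqp1 was 3.81-fold higher (3.07 to 4.76) and Car4, a gene of the rule, 9.80-fold.

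Other genes of the same side were Tspan7, a tetraspanin (44.6-fold, 12.1 to 373, on 110 and 2 UMIs), C1qtnf9, a secreted relative of adiponectin (27.2-fold, 7.24 to 229), and Stmn2, a microtubule regulator on the arterial list, with 51 UMIs in 19 cells without Plvap and none with it (at least 13.8-fold against a floor of 3 UMIs over the group). Meox2 was seen in 10 cells without Plvap and 1 with it (16 and 1 UMIs, 13.0-fold, 2.02 to 544). Its paralogue Meox1 went the other way: 0 UMIs in 61 cells without Plvap, which allows a share of cells with a UMI of up to 4.92%, and 43 UMIs in 21 of 38 cells with it, at least 17.7-fold lower without Plvap. With 17 UMIs in all, Meox2 was under the limit for a measured gene.

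Sham members with Plvap stood higher for Insr, Ramp3, Igfbp3, Meox1, Ptgs1, Fosl2, Stc1 and Bhlhe40. Insr, the insulin receptor, stood at 643 CPM with Plvap and 18.6 CPM without (ratio without over with 0.0290, 0.00586 to 0.0876), and 25 of 38 cells against 3 of 61 held a UMI. Ramp3, which couples to the calcitonin receptor-like receptor to bind adrenomedullin, stood at 605 and 12.4 CPM (0.0205, 0.00244 to 0.0767). Igfbp3, a binding protein of insulin-like growth factors, stood at 4103 and 130 CPM (0.0318, 0.0195 to 0.0491) and was the most abundant of these. Stc1, which encodes the secreted glycoprotein stanniocalcin, had 35 UMIs with Plvap and none without, at least 14.4-fold lower without it. Ptgs1, the constitutive cyclooxygenase, and Esm1, a proteoglycan of sprouting vessels, were seen in 21 and 13 cells with Plvap and in 1 cell each without. The transcription factor genes Fosl2 and Bhlhe40 had ratios of 0.0640 and 0.0966. Btnl9, often used as a capillary marker, was also on the Plvap side (0.150, 0.0682 to 0.298), while Cd300lg (0.905, 0.659 to 1.24) stood at similar levels in both. Gpihbp1 itself stood at 1857 CPM without and 1990 CPM with Plvap. It is a gene of the rule, and 32 of the 38 cells with Plvap had no Car4 UMI and came in by Gpihbp1 alone, so this likeness describes the choice.

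**Figure D2:**
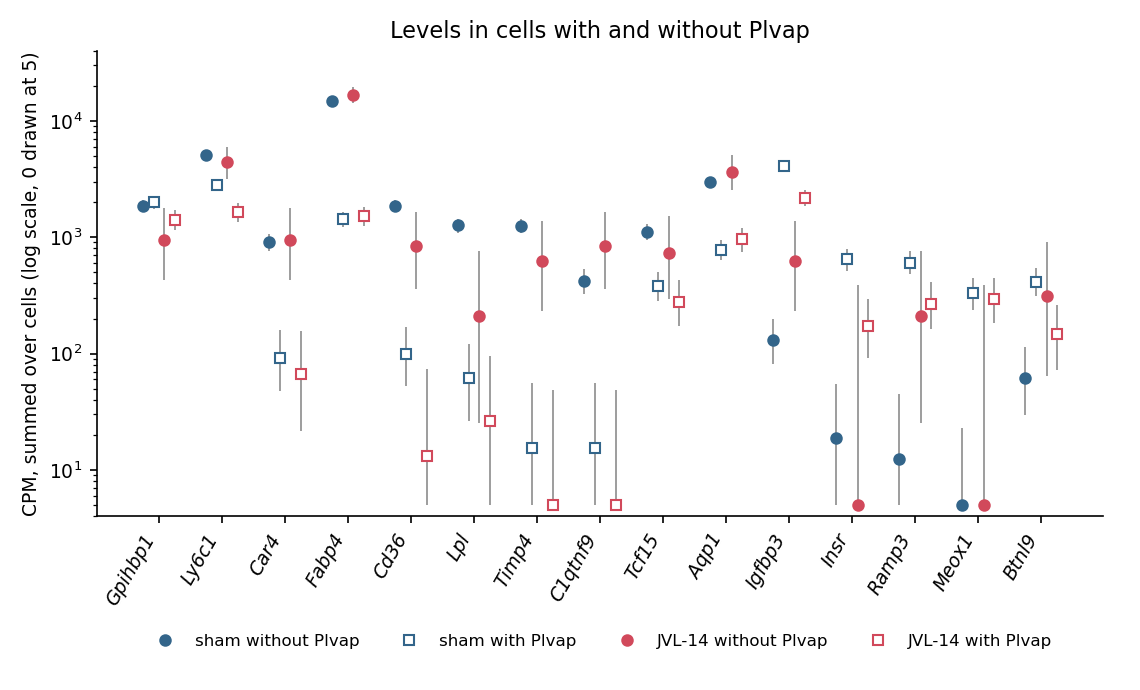
Levels in CPM (log scale, values of 0 drawn at 5) of 15 genes in sham (blue) and JVL-14 (red) members without Plvap (filled circles, 61 and 5 cells) and with it (open squares, 38 and 20 cells). Bars are exact Poisson 95% intervals of the counts. Car4, Fabp4, Cd36, Lpl, Timp4 and C1qtnf9 lie higher without Plvap, and Igfbp3, Insr and Meox1 higher with it. Gpihbp1 lies near the same level in the sham kinds, and it and Car4 are genes of the rule.

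Of the 2650 genes measured (at least 20 UMIs in all and a mean of 20 CPM), 9.02% were at least 2-fold higher without Plvap and 12.3% at least 2-fold lower, with a median log2 ratio of -0.08. On the fatty acid and lipoprotein list 8 of 12 measured genes were higher, 7 of them at least 2-fold, with a median of 1.32. The 4 that were lower were Meox1, Rbp7, Scarb1 and Aplnr. On the fenestrated and venular list, leaving Plvap aside, 0 of 9 were higher (median -0.86), and on the tip cell and angiogenesis list 0 of 7 (-1.12). All 6 measured arterial genes were higher without Plvap (0.86), among them Stmn2 and the chemokine gene Cxcl12 (1.79-fold, 1.47 to 2.17). All 10 measured genes of the flow response list were lower in sham without Plvap (-0.78), among them Klf2 at a ratio of 0.663 and Cited2 at 0.406. All 12 measured class I antigen presentation genes were lower in sham too (-1.13, 8 at least 2-fold), such as H2-K1 at 975 CPM without and 2136 CPM with Plvap and H2-Q7 at a ratio of 0.120. All 22 nuclear-encoded respiratory chain genes were higher without Plvap, but by little (median 0.34), and the median was 0.07 as a mean over cells and -0.04 without the 3 sham members in the top 5% of doublet scores. In JVL-14, where 5 cells stand against 20, the same contrast had 3 of 4 fatty acid genes higher (median 1.01), 1 of 6 fenestrated and venular genes (-0.65) and 3 of 3 arterial genes (2.64). For class I genes and flow response genes it ran the other way: 6 of 7 were higher without Plvap (0.25), with H2-D1 1.62-fold (1.11 to 2.30) and H2-K1 1.35-fold (0.819 to 2.14), and 3 of 5 were higher (0.66), with Klf2 2.07-fold (1.44 to 2.92) and Klf4 4.05-fold (2.16 to 7.35). Tip cell genes were 2 of 4 higher (-0.04). Only 3 of those 5 JVL-14 cells held 2 or more UMIs of Cd36, Lpl and Timp4, against 55 of 61 in sham, so the contrast sets a different mix of cells against Plvap in JVL-14. The lists and the divide were chosen with these counts in view, so the counts describe the cells and carry no test.

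Among the continuous capillary genes the divide ran through the list: 13 of 21 were higher without Plvap. Cav1, the main coat protein of caveolae, was 4.28-fold higher, Cav2 2.15-fold and Tspan13 8.23-fold, while the endothelial sialomucin Podxl was lower (0.490). Kdr, the main VEGF receptor, was lower too (0.544, 0.433 to 0.681), but it is a gene of the rule and is not among the 21. The class of marker alone did not say on which side a gene lay.

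A further small kind carried genes of the brain barrier. Members with no UMI of Gpihbp1, Plvap or Fabp4 numbered 3 in sham and 1 in JVL-14, and they entered by Car4 alone, with 2, 2, 16 and 5 UMIs. They held 280, 273, 131 and 84 UMIs of the 22 listed brain barrier genes. As CPM of the cell these are 17554, 98025, 47004 and 53674, against medians of 1713 in the other 96 sham members and 3248 in the other 24 JVL-14 members, whose highest cells reached 5839 and 7396. Claudin-5 gave 52, 23, 18 and 7 UMIs, the glucose transporter Slc2a1 25, 14, 8 and 9, and Bsg, which escorts monocarboxylate transporters, 46, 94, 44 and 28. The organic anion transporter Slco1a4 gave 0, 9, 7 and 11 UMIs, with the 0 in the cell of 15951 UMIs. These cells decide the list's value among members without Plvap: the sham median for brain barrier genes, without over with Plvap, was 1.28 with them and -1.30 without the members that lack Gpihbp1.

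A few members carried genes of other lineages. Both JVL-14 members with 10 or more Ccl21a UMIs (69 and 200) also held Prox1 (2 and 6), Mmrn1 (8 and 18) and Flt4 (2 and 10), markers of lymphatic endothelium, together with 2 Gpihbp1 UMIs each and 7 and 12 of Plvap. Both were in the top 5% of doublet scores, as were the sham cell of 15951 UMIs with brain barrier genes and the sham cell with mural genes given next. Whether these cells are doublets was not tested. No sham member reached that Ccl21a count. In sham, 1 member held 1677 of the 1725 UMIs of the lymphocyte list, 1 held 155 of the 175 of the mural list, and 1 held 243 of the 277 of the olfactory neuron list. These members had no Plvap UMI, nor had the sham brain barrier cell of 15951 UMIs. The mural-marked cell held 21154 UMIs, and a cell with 1281 Jchain UMIs held 15639. The sham members without Plvap held 161052 UMIs in all, so such cells weigh on every pooled level of that kind. Adipocyte markers, among them Adipoq, Plin1 and Cidec, were at 0 UMIs for all 7 genes in members of both libraries. They were also rare outside the endothelial cells (7.95 CPM in sham and 5.66 in JVL-14), so these counts of 0 say little.

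Against the other endothelial cells of the same library, sham members were higher for the lipid uptake genes. This contrast contains the rule and is given as a description. Of 4684 genes measured, 13.3% were at least 2-fold higher in members and 8.05% at least 2-fold lower (median log2 ratio 0.19). Cd36 stood at 1070 CPM in members and 68.9 in the others (15.5-fold, 10.1 to 25.1). Timp4 was 13.1-fold higher (7.97 to 22.9), C1qtnf9 18.9-fold (7.06 to 71.3), Lpl 10.0-fold (6.52 to 16.2) and Fabp4 8.39-fold (7.48 to 9.43). Lipe, hormone-sensitive lipase, was 9.49-fold higher (4.08 to 27.0). Slc28a2, a nucleoside transporter, was 8.54-fold higher, Slc26a10 17.2-fold and the potassium channel Kcna5 35.1-fold on 32 UMIs against 1 (5.86 to 1431). Tspan7, Tspan6 and the endocytic recycling gene Ehd1 were 10.2-fold, 7.49-fold and 6.35-fold higher.

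All 13 measured fatty acid genes were higher in sham members (median 1.92, 9 at least 2-fold), as were 21 of 22 continuous capillary genes (1.57, 18 at least 2-fold) and 16 of 17 general endothelial genes outside the rule (0.70). The fenestrated and venular list was mixed, with 8 of 17 higher: Igfbp3 was 3.79-fold and Esm1 2.57-fold higher, whereas Vwf, the clotting factor carrier of larger vessels, stood at 20.6 CPM in members and 272 in the others (ratio 0.0755, 0.0270 to 0.171) and the venous regulator Nr2f2 at a ratio of 0.227 (0.0769 to 0.556). The genes named as lowest in members were Ptpn1, Zfas1, Tgfbr2, Os9, Ptbp1, Cyb5r3, Psmc2 and Tnfaip2, with ratios from 0.344 to 0.604. The other endothelial cells of sham held 60823 CPM of haemoglobin and erythroid transcripts, against 391 in members and 509 in the other endothelial cells of JVL-14, and without comparison cells of 10 or more haemoglobin UMIs the medians of the fatty acid and continuous capillary lists were 1.83 and 1.47.

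In JVL-14 the same contrast measured 1887 genes, of which 11.7% were at least 2-fold higher in members and 8.74% at least 2-fold lower. Fabp4 was 12.7-fold higher (8.81 to 19.0), Aqp1 13.2-fold (7.26 to 26.4), Tcf15 10.4-fold (3.63 to 40.7) and Igfbp3 9.74-fold (6.43 to 15.3). All 19 continuous capillary genes were higher (median 1.03) and 5 of 6 fatty acid genes (1.77). Vwf had 0 UMIs in members and 71 in the others, at least 16-fold lower. Cd36 (9 UMIs against 0) and Timp4 (6 against 0) were too sparse to be counted as measured.

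Genes were ranked by likeness to Gpihbp1 over the 161 sham endothelial barcodes. The 5 most alike were Aqp1 (Pearson r 0.56), Cd36 (0.55), Ly6c1 (0.50), Lpl (0.49) and Fabp4 (0.48). The points are cells of 1 library and share its depth and its choice of cells, so these are descriptions. The genes that varied most among sham members, as variance over the Poisson expectation, were Cdkn1c (168), an inhibitor of cyclin-dependent kinases, Malat1 (82.5), Cd74 (63.5), Fabp4 (59.4), Mt1 (44.4), S100a6 (35.6), Kcnq1ot1 (34.3) and Bsg (33.0). Cdkn1c stood at 2266 CPM without and 115 CPM with Plvap. With so large a variance a few cells can set these pooled levels, so they are not given as a trait of either kind.

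Members were a smaller part of the JVL-14 library, and the difference lay among those without Plvap. They were 2.0% of retained barcodes in sham (1.63% to 2.43%) and 0.959% in JVL-14 (0.621% to 1.41%), a ratio of 0.479 (0.296 to 0.750). Members without Plvap were 1.23% (61 cells) and 0.192% (5 cells), a ratio of 0.156 (0.0488 to 0.383). Members with Plvap were 0.768% (38 cells) and 0.767% (20 cells), a ratio of 0.999 (0.551 to 1.76). The other endothelial cells had a ratio of 0.827 (0.506 to 1.32). As a part of endothelial barcodes alone, members were 61.5% and 48.1%, and this ratio of 0.782 has an interval that includes 1 (0.483 to 1.22). A smaller number of cells and less RNA per cell cannot be told apart where a cell must pass a count to be a member.

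Skeletal muscle transcripts moved the same way between the libraries. Barcodes with 10 or more UMIs of 16 muscle genes were 6.30% of sham and 0.729% of JVL-14 barcodes, a ratio of 0.116 (0.0687 to 0.184). Members with 3 or more muscle UMIs were 6 of 99 and 0 of 25. The list summed to 584 CPM in sham members without Plvap, 230 with it, and 105 and 0 CPM in JVL-14, with 5 of 16 genes at 0 in sham members and 15 of 16 in JVL-14. Of the 124 muscle UMIs of sham members, many lay in 2 cells with 10 or more each (highest 31), and the 105 CPM in JVL-14 is 1 UMI. Acta1, the skeletal muscle actin, was in 13 of 61 sham members without Plvap and in 8 of 38 with it. The part of tissue carried along with the dura in the share of these cells was not tested.

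**Figure D3:**
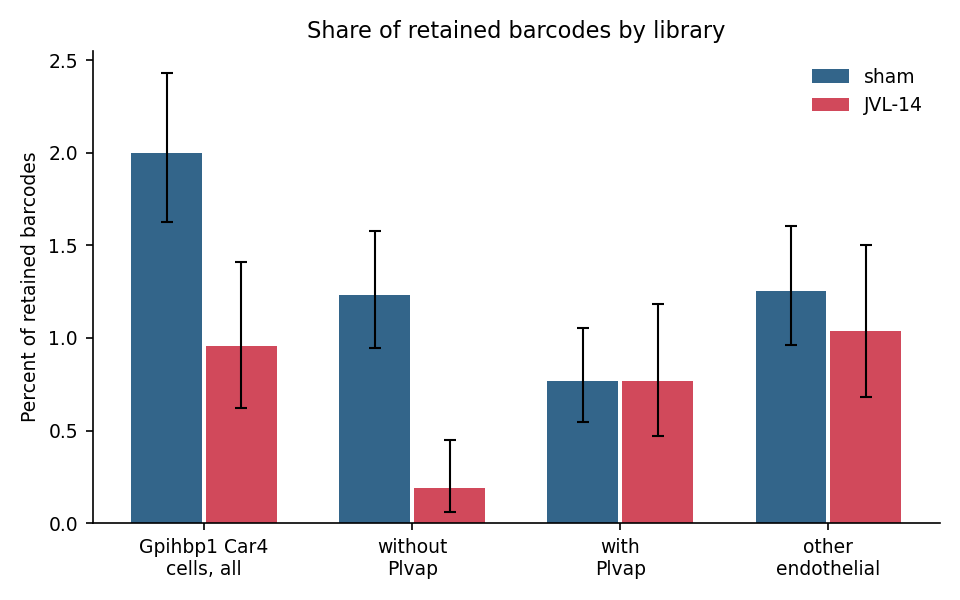
Share of retained barcodes in percent for all Gpihbp1 Car4 endothelial cells, those without and with Plvap, and the other endothelial cells, in sham (blue) and JVL-14 (red), with exact Clopper-Pearson 95% intervals that cover counting error only. Cells without Plvap are at 1.23% and 0.192%, and cells with Plvap at 0.768% and 0.767%.

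Pooled over all members, JVL-14 stood lower for the lipid genes and higher for Plvap. Of 3369 genes measured, 7.18% were at least 2-fold higher in JVL-14 and 9.2% at least 2-fold lower, with a median of 0.05. Lpl had a ratio JVL-14 over sham of 0.0651 (0.0176 to 0.169), Cd36 0.0991 (0.0449 to 0.191), Timp4 0.102 (0.0368 to 0.225), Ehd1 0.118 and Tspan7 0.153. Fabp4 was at 8769 CPM in sham against 3238 CPM (0.369, 0.325 to 0.418), but at 14722 and 16825 CPM among members without Plvap and at 1431 and 1513 CPM among those with it. The pooled difference in Fabp4 was thus not seen in the summed CPM of either kind. Without Plvap, however, JVL-14 has only 5 cells, with a median of 27 Fabp4 UMIs and 2 cells at 0. In sham the median was 37 UMIs, with 3 of 61 cells at 0, so equal levels are not shown for that kind. With Plvap, the summed level leans on few cells. In sham 1 cell held 99 Fabp4 UMIs and 29 of 38 were at 0, and in JVL-14 the highest cell held 30 and 12 of 20 were at 0. Equal levels are thus not shown for the cells with Plvap either. Plvap was 1.99-fold higher (1.70 to 2.33), Clec2d, a ligand of an inhibitory receptor of natural killer cells, 3.17-fold (1.96 to 5.12), Ywhab 2.02-fold, Zfp36l1 2.01-fold and Arhgap29 1.90-fold. On the fatty acid list 9 of 13 genes were lower in JVL-14, with a median of -1.23.

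The 5 JVL-14 members without Plvap had C1qtnf9 at 836 CPM (8 UMIs, against 416 CPM and 67 UMIs in sham), Cd36 at 836 CPM (8 UMIs, against 1857 CPM) and Lpl at 209 CPM (2 UMIs, against 1260 CPM). Cxcl12 stood at 8151 CPM in these 5 cells and was in all of them, against 2105 CPM in 57 of 61 sham cells. The 5 cells are a mix. The brain barrier cell gave 16 of the Cxcl12 UMIs. Another cell gave 19, and it held 5 UMIs of the arterial list gene Gja4 but none of Fabp4, Cd36, Lpl or Timp4. With 5 cells and 9569 UMIs in all, most genes could not be compared.

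Members with Plvap, at 38 and 20 cells, could be compared between the libraries with similar depth (medians of 3084 and 3135.5 UMIs). Of 1947 genes measured, 5.65% were at least 2-fold higher in JVL-14 and 9.24% at least 2-fold lower, with a median of -0.02. Glucocorticoid-induced genes were lower in JVL-14 for 11 of 11 (median -0.93), 4 of them at least 2-fold. Fkbp5, a chaperone that dampens the glucocorticoid receptor, stood at 214 CPM in sham and 66.4 in JVL-14 (0.310, 0.0933 to 0.812), Sgk1, a kinase, at 1186 and 504 CPM (0.425, 0.290 to 0.609), and Tsc22d3, which encodes GILZ, at 919 and 478 CPM (0.520, 0.348 to 0.760). The same list was lower in JVL-14 for 15 of 15 measured genes in barcodes outside the endothelial cells (median -0.52, Fkbp5 at a ratio of 0.285), and for 5 of 13 in the other endothelial cells (0.04), where Fkbp5 had a ratio of 2.08 (0.761 to 5.52). Whether the endothelial groups differ in this was not tested.

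Immediate early genes were lower in 13 of 15 (median -0.74), with Fos at a ratio of 0.597 (0.468 to 0.755), Jun at 0.580 (0.458 to 0.730) and Atf3 at 0.121 (0.0240 to 0.378), while Nr4a1 was 2.15-fold higher. In the other endothelial cells 12 of 15 were higher in JVL-14 (0.45). Flow response genes were lower in 8 of 9 (-0.66), Klf4 among them (0.514, 0.342 to 0.756), with Klf2 at 0.919. Outside the endothelial cells 8 of 10 were lower as well (-0.46, Klf4 at 0.605), whereas in the other endothelial cells 7 of 10 were higher (0.09). Immediate early genes outside were lower in 10 of 15 (-0.12).

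Several genes that set the Plvap cells apart in sham were lower in the JVL-14 cells of that kind, although Plvap itself was at 3353 and 3371 CPM. Insr, Igfbp3, Ramp3, Stc1 and Meox1 had been named for high values in these same sham cells. A lower value in JVL-14 can follow from that choice, and its part was not tested. Insr was at a ratio of 0.268 (0.137 to 0.484), Igfbp3 at 0.534 (0.446 to 0.637), Ramp3 at 0.439 (0.254 to 0.724), Esm1 at 0.428 (0.240 to 0.724), and Stc1 at 0.347 (0.130 to 0.792). Meox1 stood at 329 and 292 CPM. Ly6c1 was lower (0.584, 0.472 to 0.719), as was the cell cycle regulator Rgcc (0.384, 0.303 to 0.482). Outside the endothelial cells Ly6c1 had a ratio of 0.0688, Igfbp3 of 0.310 and Rgcc of 0.731, while Insr stood at 0.935 and Id1 at 1.19. The levels there were very low for Ly6c1 (9.62 CPM in sham and 0.662 in JVL-14) and Igfbp3 (5.63 and 1.75 CPM). Rgcc stood at 119 and 86.7 CPM. Which cells hold these few UMIs was not tested. The lowest named genes were Rasd1, a small GTPase induced by dexamethasone (0.0578, on 1 and 30 UMIs), Id1, a target of BMP signalling (0.249, 0.148 to 0.400), Notch1 (0.253, 0.0965 to 0.562), Insr and the nuclear envelope gene Syne1 (0.323). The highest among genes with at most 50% of their UMIs in 5 cells were Tmem50a (1.83-fold), Sox18, an endothelial transcription factor (1.62-fold, 1.05 to 2.50), Uqcrb (1.61-fold), Septin7 (1.33-fold) and Selenof (1.32-fold). Clec2d was 2.68-fold higher (1.52 to 4.81) and also 3.14-fold higher in the other endothelial cells (2.0 to 4.95), against 1.07-fold outside the endothelial cells. With more of their UMIs in 5 cells, Il6st was 3.76-fold (1.83 to 8.17), Clec14a 2.36-fold (1.61 to 3.47) and Nr4a1 2.15-fold higher.

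Of the JVL-14 members with Plvap, 3 of 20 were in the top 5% of doublet scores, against 0 of 38 in sham. The largest of the 3, with 12019 of the group's 75353 UMIs, stayed in all values of this paragraph. The other 2, the lymphatic-marked cells, moved some of the values above. Without them the glucocorticoid list was still lower in 11 of 11 (median -0.73), immediate early genes in 12 of 15 (-0.52) and tip cell genes in 7 of 7 (-0.43), and Insr, Igfbp3, Rgcc and Id1 had ratios of 0.312, 0.621, 0.446 and 0.290. Cldn5 was 4.91-fold higher in JVL-14 with them (1.85 to 15.2) and 1.68-fold without (0.406 to 6.61). Nr2f2 had 3 UMIs in sham and 21 in JVL-14 with them (12.1-fold, 3.62 to 63.5), and 13 without (8.74-fold, 2.40 to 47.8), against a ratio of 0.697 in barcodes outside the endothelial cells. It was singled out after its values were seen.

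**Figure D4:**
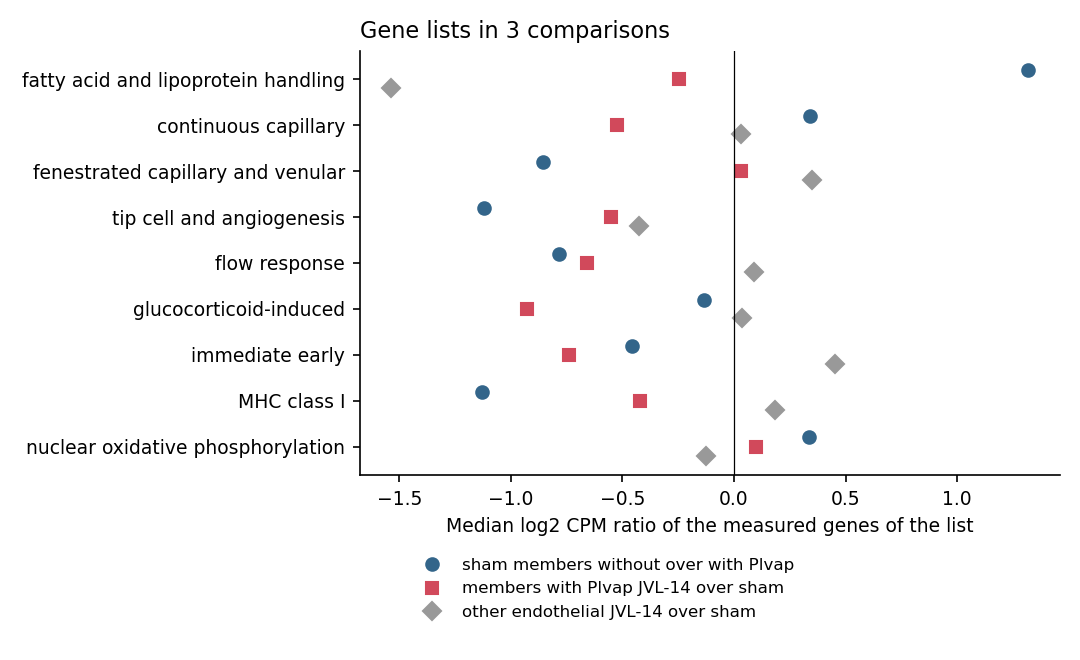
Median log2 CPM ratio of the measured genes of 9 lists: sham members without over with Plvap (blue circles), members with Plvap in JVL-14 over sham (red squares) and other endothelial cells in JVL-14 over sham (grey diamonds). The first and second share the sham cells with Plvap. Glucocorticoid-induced genes lie at -0.93 in the members with Plvap and 0.04 in the other endothelial cells.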

How the data were processed

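Droplet single-cell RNA sequencing of the dura gave 2 libraries, 1 per group. The authors deposited UMI counts per gene and barcode, raw and filtered for cell barcodes, written by Cell Ranger 8.0.0 per the file headers with mm39 as genome build according to the submitters' processing notes. The annotation is not given in the sources used. The 5495 sham and 3004 JVL-14 barcodes held 33996641 and 18796260 UMIs. Of 33696 gene rows, 26 repeat a symbol, and the row with more UMIs was used. The libraries share 2 barcode sequences, none among the members.

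UMIs were summed per group of cells and given per 1e+06 UMIs (CPM). Ratios carry exact conditional binomial 95% intervals, shares Clopper-Pearson intervals and levels Poisson intervals. They cover counting error only and leave out the spread between cells. For log2 ratios 0.5 was added to both counts. A gene was measured with at least 20 UMIs in all and a mean of 20 CPM, and at least 2-fold is given as the share of such genes. The calculation was tested on simulated data. Python 3.11.15, numpy 2.4.6, scipy 1.17.1 and pandas 2.3.3 were used.

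The members, the lists and the divide by Plvap were chosen with earlier results of these data known. Genes were named by the highest and lowest ratio (12 and 8 for members over other endothelial cells in sham, 8 and 8 for the Plvap divide, otherwise 5 and 5) if they had 30 UMIs and 50 CPM or more where higher, a UMI in at least 10% of its cells, at most 50% of UMIs in 5 cells, and counts under 3 set to 3. Left out were rule genes, Xist, unnamed models and genes of mitochondria, ribosomes, haemoglobin and immunoglobulins. Other genes are given as members of lists or for their role.

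No doublets were removed from the members. Scrublet (scanpy 1.11.5) marked 0.121% and 0.230% of barcodes by its own threshold, under 0.5%, so the top 5% of scores were left out as an alternative. They hold 3 of 99 sham and 3 of 25 JVL-14 members. In all, 14 alternatives were planned, on the limits of the rule, depth, exclusions, doublets, muscle and denominators, and others were chosen after seeing the data.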

Additional observations from a re-analysis of the deposited data

Results flagged for a closer look

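The median log2 ratio of members over other endothelial cells had opposite signs in the libraries for 2 lists. For fenestrated and venular genes it was 0.27 in JVL-14 (9 of 16 measured genes higher) and -0.23 in sham (8 of 17). For brain barrier genes it was -1.24 in JVL-14 (0 of 11 higher) and 0.19 in sham (8 of 12). The difference between the libraries was not tested for either list. In the other endothelial cells the brain barrier list was higher in JVL-14 than in sham for 12 of 13 genes (median 1.31), and claudin-5 was at 269 CPM in sham against 954 CPM. Over the alternatives the sham value for brain barrier genes ran from -1.19 to 0.76, so its sign was not settled.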

How the results depend on the processing

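Over 12 alternatives the ratio of shares, JVL-14 over sham, ran from 0.350 to 0.782 for members, where 0.782 is the share of endothelial barcodes, from 0.0868 to 0.254 for members without Plvap and from 0.831 to 1.63 for those with it. For sham members over other endothelial cells, 625 genes were at least 2-fold higher and 377 lower. These counts were 1047 and 797 with an endothelial sum of at least 3, 374 and 158 with at least 10, and 87 and 61 with cells thinned to 1000 UMIs, where fewer genes were measured. The lower count was 250 without the top 5% of Scrublet scores, 726 without the fibroblast and macrophage limits and 203 without barcodes of 3 or more muscle UMIs, and the cause was not tested. In that contrast the log2 ratio of Cldn5 turned from 0.78 to -0.87 with at least 3 UMIs of Gpihbp1 plus Car4, -0.29 thinned and -0.011 as a mean over cells, Plvap turned from 0.46 to -0.58 thinned and -0.34 as a mean over cells, and Tnfaip2 from -0.72 to 0.0296 without the limits. For members in JVL-14 over sham, 242 genes higher and 310 lower became 110 and 180 among cells with Plvap, from fewer cells and genes. Fabp4, at -1.43 over all members, was 0.0824 with Plvap and 0.20 without it, and the fatty acid list median, at -1.23, was 0.0800 without Plvap. The brain barrier median between the kinds, 1.28, was -1.30 without members that lack Gpihbp1 and -1.20 for the cells with 2 or more UMIs of Cd36, Lpl and Timp4. The respiratory chain median of 0.34 was -0.04 without the top Scrublet scores. Of 620 alternative values of named genes 8 changed sign beyond their interval. List medians carry no interval: of 174 values 3 were counted as reversed, but more than these changed sign. The brain barrier median kept its sign in only 8 of 13 alternatives for sham members over other endothelial cells. For members in JVL-14 over sham it did so in 8 of 13 as well. No paired analysis was possible because each group has 1 library. With 25 and 5 members in JVL-14, a gene under about 20 UMIs could not be compared.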
